A study of Rattus norvegicus with 9 samples.

Results

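The genes described here encode the Sm and LSm proteins, which form the protein rings of small ribonucleoproteins, and the subunits of RNA polymerase II. They were taken by symbol: every protein-coding gene whose symbol began with Snrp, Lsm followed by a digit, or Polr2, with a mean of at least 0.5 FPKM (fragments counted on a gene, scaled to its length and to the depth of the library) over the libraries. Of 37 genes with such a symbol 36 met the level rule, made up of 13 Sm genes, 13 LSm genes and 10 RNA polymerase II genes, among 15958 genes at that level and 34092 genes in the whole table. Polr2h was the one gene left out and was listed at 0 in all 9 libraries. The members just inside the rule were Snrpd2l with a mean of 0.611 FPKM, Snrpn with 0.794 FPKM and Polr2i with 2.20 FPKM.

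RNA polymerase II transcribes the protein-coding genes of the nucleus, and its own subunits are joined by a few small ones that polymerases I and III use as well. Sm proteins close into a ring around the small nuclear RNAs of the spliceosome, the machine that removes introns from the transcripts of that polymerase, while proteins such as Snrpa1 and Snrpb2 bind 1 particular small nuclear RNA. The related LSm proteins form a nuclear ring on U6 small nuclear RNA and a cytoplasmic ring that acts with the decapping enzyme in messenger RNA decay, and neurons, like other cells, use all of these.

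The cells were primary hippocampal neurons of the rat, prepared from fetuses of embryonic day 17 and treated at day 7 in vitro for 24 h. The 3 groups had 3 libraries each. One is labelled Control and is called vehicle here. The others received 1 nM human aminoprocalcitonin (NPCT) or 1 nM procalcitonin (PCT, the precursor from which NPCT is cleaved). No genotype, strain or sex of the fetuses was given by the labels. The study's methods name Sprague-Dawley rats for its animals, without a separate statement for the fetuses. They also name pooled material from biological triplicates, without saying how the pools map to the numbered libraries. The p-values thus measure only the spread between these libraries. Each library held between 13573056 and 17211642 fragments assigned to genes, and the members took 20075 to 27923 of them.

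These are bulk cultures, in which fewer cells of a type and less RNA per cell cannot be told apart. Neuron markers were present in every library. Their sum over 10 genes was 2094 to 2185 FPKM in vehicle, 2013 to 2075 FPKM with NPCT and 2045 to 2250 FPKM with PCT. The neuronal nuclear protein Rbfox3 lay between 26.9 and 32.8 FPKM. Against vehicle, the median log2 difference of the 10 genes was -0.13 with NPCT and -0.10 with PCT. At an unadjusted limma p under 0.05, 1 was higher and 5 lower with NPCT, and 1 higher and 3 lower with PCT. Of all genes tested, 14.6% were higher and 14.7% lower with NPCT, and 9.91% and 9.01% with PCT. Map2, Snap25 and Gad2 were among the 5 lower with NPCT (log2 -0.42, -0.42 and -0.43, limma adjusted p 0.0592, 0.0545 and 0.0517). The 1 higher with NPCT was Slc17a7 (log2 0.28, limma adjusted p 0.0537), and 3 of the 10 had a log2 difference above 0. The cultures also held astrocyte markers, summed over 6 genes to 1979 to 2164 FPKM in vehicle, 1909 to 2265 FPKM with NPCT and 1850 to 1919 FPKM with PCT. Gfap made up much of this sum, with 776 ± 48.1 FPKM in vehicle and 919 ± 17.2 FPKM with PCT, while the median log2 difference of the 6 genes with PCT was -0.46, and Aldh1l1, Aqp4 and S100b fell (log2 -0.83, -0.65 and -0.60; limma adjusted p 0.00362, 0.00393 and 0.0160). The cultures held oligodendrocyte markers, summed over 8 genes to 451 to 468, 491 to 521 and 409 to 425 FPKM. Markers of microglia, summed over 6 genes, were at 19.3 to 26.8 FPKM in vehicle, 30.1, 27.0 and 112 FPKM in NPCT replicates 1, 2 and 3 and 8.23 to 10.7 FPKM with PCT, and none of the 6 was at 0 in all libraries. Replicate 3 of NPCT thus stood apart in these markers, and it also had the highest NPCT values of Lsm7 and Polr2k. Markers of dividing cells (6 genes) lay between 106 and 137 FPKM, and of 5 endothelial and pericyte markers only 1 was tested, at 2.76 to 4.09 FPKM for the list. The part of these cell types in the members' differences was not tested. Replicate 3 of PCT stood apart from the other PCT libraries in many members.

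For 31 of the 36 members a promoter window, from 250 bases before to 50 after the start of the gene, could be matched by symbol in RefSeq (build GRCr8). The windows of Lsm4 and Lsm7, whose products sit in both LSm rings, and of Snrpa1 and Snrpb2, which encode the protein pair of the U2 particle, are shown because the measurements below turn on these 4 genes. Capitals mark motif letters found on either strand. For a GC box the search used GGGCGG. An ETS-type site was taken as the letters CCGGAAG. For an NRF1-type site they were GCGCATGC. The TATA box was searched as TATAAA. Overlapping matches run together. The windows lie at chr16:18794837-18795136 on the minus strand for Lsm4, and on the plus strand at chr7:9507123-9507422 for Lsm7, chr1:129051800-129052099 for Snrpa1 and chr3:150852584-150852883 for Snrpb2.
Lsm4: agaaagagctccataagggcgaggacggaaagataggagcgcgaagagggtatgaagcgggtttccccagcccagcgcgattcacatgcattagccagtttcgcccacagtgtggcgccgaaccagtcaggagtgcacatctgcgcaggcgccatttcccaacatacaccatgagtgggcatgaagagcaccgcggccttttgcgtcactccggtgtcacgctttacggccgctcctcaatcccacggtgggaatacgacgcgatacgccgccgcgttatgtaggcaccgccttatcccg
Lsm7: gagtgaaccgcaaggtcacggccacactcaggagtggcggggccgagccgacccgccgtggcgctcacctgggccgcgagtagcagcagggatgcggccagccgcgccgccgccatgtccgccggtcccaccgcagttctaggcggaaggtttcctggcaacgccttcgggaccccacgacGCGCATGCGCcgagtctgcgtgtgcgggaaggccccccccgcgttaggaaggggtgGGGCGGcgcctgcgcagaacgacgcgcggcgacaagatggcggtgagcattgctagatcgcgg
Snrpa1: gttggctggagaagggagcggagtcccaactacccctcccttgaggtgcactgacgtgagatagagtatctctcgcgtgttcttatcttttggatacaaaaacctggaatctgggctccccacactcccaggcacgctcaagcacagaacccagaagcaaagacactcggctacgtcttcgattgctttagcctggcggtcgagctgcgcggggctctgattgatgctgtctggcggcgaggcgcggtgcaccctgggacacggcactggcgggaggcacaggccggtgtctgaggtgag
Snrpb2: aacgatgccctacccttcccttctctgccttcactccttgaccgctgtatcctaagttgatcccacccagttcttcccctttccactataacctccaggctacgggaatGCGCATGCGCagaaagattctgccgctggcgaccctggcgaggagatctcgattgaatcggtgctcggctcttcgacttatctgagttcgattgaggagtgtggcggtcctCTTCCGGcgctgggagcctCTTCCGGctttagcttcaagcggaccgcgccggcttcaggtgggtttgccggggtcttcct

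None of these motifs was found in the windows of Lsm4 and Snrpa1, while Lsm7 held a GC box and overlapping NRF1-type letters, and Snrpb2 held NRF1-type letters and CCGGAAG at 2 places. Over the members with a window, 11 of 31 held CCGGAAG (35.5%), against 17.4% of the 10055 tested protein-coding genes with a window and 8.75% of all 33469 windows. GCGCATGC was in 4 of 31 (12.9%, against 5.16% of tested genes and 2.47% of all windows), GGGCGG in 21 of 31 (67.7%, against 64.5% and 33.1%) and TATAAA in 3 of 31 (9.68%, against 7.23% and 14.2%). The 11 include Snrpe and Snrpg, whose windows lie on other chromosomes than the gene models measured here. A match is a stretch of letters and not a shown binding site.

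In the vehicle libraries the members spanned a wide range of levels. Lsm14b, an RNA-binding protein of cytoplasmic granules, was the highest LSm gene at 68.3 ± 5.08 FPKM (SD, n = 3), and Snrpd1 the highest Sm gene at 64.5 ± 7.27 FPKM. Polr2f, a small subunit shared by all 3 nuclear polymerases, was the highest of its family at 49.8 ± 0.958 FPKM, beside 38.3 ± 1.32 FPKM for Polr2a, the large catalytic subunit. At the lower end Lsm6 was at 4.03 ± 0.190 FPKM and Snrpn at 0.836 ± 0.178 FPKM. Snrpn encodes a close paralog of Snrpb that is abundant in adult brain, and its 11 to 22 fragments per library compare with 1056 to 1791 for Snrpb. The model of Snrpn shares its strand and nearly all of its span with that of Snurf, so fragments that fit both may not have been assigned to it.

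**Figure D1:**
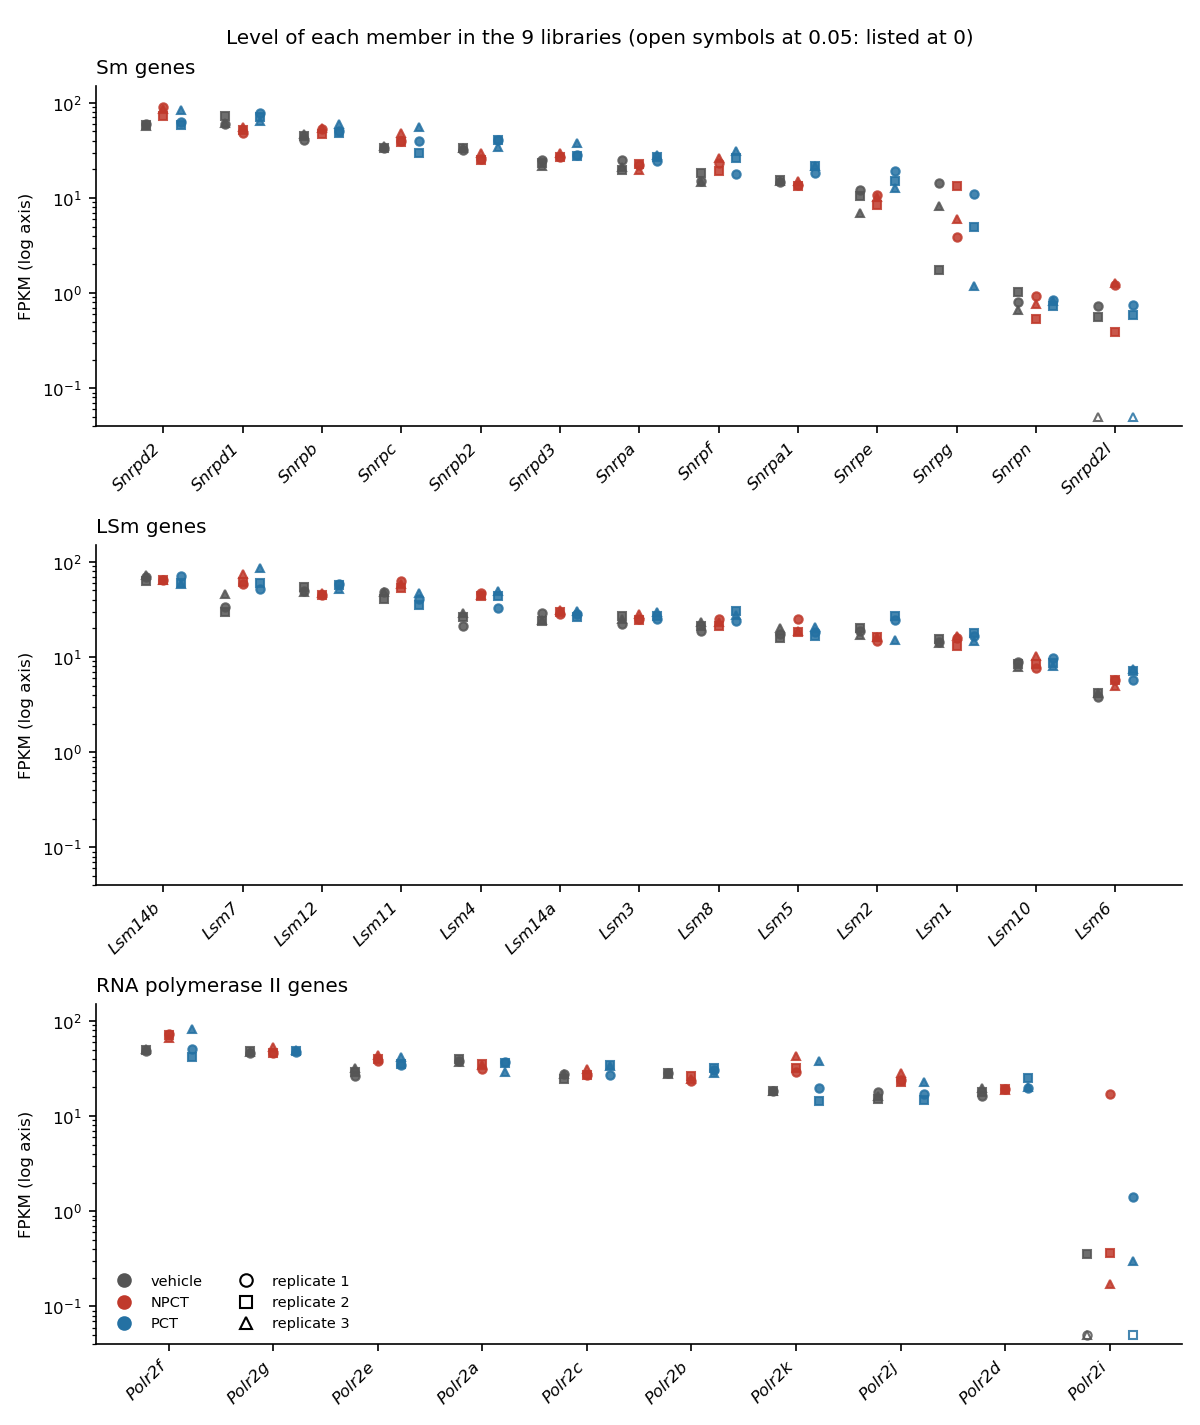
FPKM of each of the 36 members (log axis) in the 9 libraries, with the genes of each family ordered by mean level. Vehicle is grey, NPCT red and PCT blue, symbols give the replicate, and open symbols at 0.05 mark a listed 0. Most members keep to a narrow band, while Snrpg, Snrpd2l and Polr2i scatter within groups.

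Each comparison was made with limma on log2(FPKM divided by a library factor + 0.1) over all 15958 genes, and a differentially expressed gene (DEG) had to pass 0.05 after Benjamini-Hochberg adjustment and a fold change of 1.5. All log2 differences below are on this scale, which understates the change of low genes.

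The comparison of NPCT with vehicle asked what the cleaved peptide does to the neuronal transcriptome. Members at the small end of the polymerase (Polr2k, Polr2j, Polr2f) and some LSm and Sm genes (Lsm4, Lsm7, Snrpd2, Snrpf) had higher means with NPCT, and Snrpd1, Snrpb2, Polr2b and Lsm12 lower ones. None of the 36 members was a DEG by limma, where 0.219% of all genes tested were, and 3 were by limma-voom on the fragments recovered from the table (Lsm7, Lsm4 and Polr2j), where 2.45% of all genes were. By limma-voom 15 members had an unadjusted p under 0.05 (background 30.4%). At an unadjusted limma p under 0.05, 11 members were higher (background 14.6% of all genes) and 4 lower (background 14.7%). The 3 NPCT libraries lay all above the 3 vehicle libraries for 13 members (background 20.0%) and all below for 6 (background 20.3%). Over the 32 members with a mean of at least 50 fragments the median log2 difference was 0.12, with 23 of 32 above 0, beside 0.01 for all genes tested, and with each library's trend with gene length removed it was -0.01, with 15 of 32 above 0. Over all 36 members it was 0.16, but Polr2i and Snrpd2l are among these, which had means under 0.5 FPKM in vehicle and their highest mean with NPCT, so that the level rule itself favours a difference above 0 for them.

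Among the LSm genes, Lsm4 had the smallest p of all members. It lies at chr16:20506399-20511818 on the minus strand (build Rnor_6.0), and its protein is part of the ring on U6 and of the decapping ring. Lsm4 was measured at 21.3, 26.2 and 29.3 FPKM in vehicle and at 46.9, 44.3 and 44.7 FPKM with NPCT. The groups did not overlap. The fold change of Lsm4 was 1.78 (log2 0.84 ± 0.15 SE) with an adjusted p of 0.0509, just outside the limit, and over the fits that left out 1 library this p ranged from 0.00704 to 0.170.

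Lsm7 (chr7:11724962-11727388, plus strand), a neighbour of Lsm4 in the same rings, was at 33.5, 29.6 and 45.9 FPKM in vehicle and at 58.9, 61.4 and 75.1 FPKM with NPCT. The groups were again apart, with replicate 3 the highest library in both. The log2 difference of Lsm7 was 0.86 ± 0.21 with an adjusted p of 0.0562, and 0.75 with 0.146 without replicate 3 of NPCT. Lsm6, the lowest ring member, went from 3.82, 4.15 and 4.14 FPKM to 5.77, 5.75 and 4.95 FPKM, a log2 difference of 0.44 ± 0.12 with an adjusted p of 0.0685. The ring members differed among themselves, from a log2 difference of -0.25 for Lsm2 to 0.86 for Lsm7. Of Lsm1 to Lsm8, 7 were above 0 and 1 below, where 51.0% of all genes tested were above 0. At an unadjusted p under 0.05, 3 of the 8 were higher (background 14.6%).

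Lsm1, which sets the cytoplasmic ring apart, was at 14.5, 15.5 and 14.2 FPKM in vehicle and at 15.9, 12.9 and 16.7 FPKM with NPCT, so that its groups overlapped. Lsm8, its counterpart in the nuclear ring, had means of 20.9 ± 2.24 and 23.0 ± 1.94 FPKM. Lsm5, another member of both rings, was at 17.7, 15.8 and 20.0 FPKM in vehicle and at 25.1, 18.1 and 18.9 FPKM with NPCT, with overlap. Lsm10 and Lsm11 replace Sm proteins in the U7 particle that trims histone transcripts, and Lsm11 was at 47.7, 40.4 and 48.5 FPKM in vehicle and 62.5, 53.5 and 57.9 FPKM with NPCT (log2 0.35 ± 0.12, adjusted p 0.0922), while the mean of Lsm10 was 8.38 ± 0.502 FPKM in vehicle and 8.75 ± 1.30 FPKM with NPCT.

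**Figure D2:**
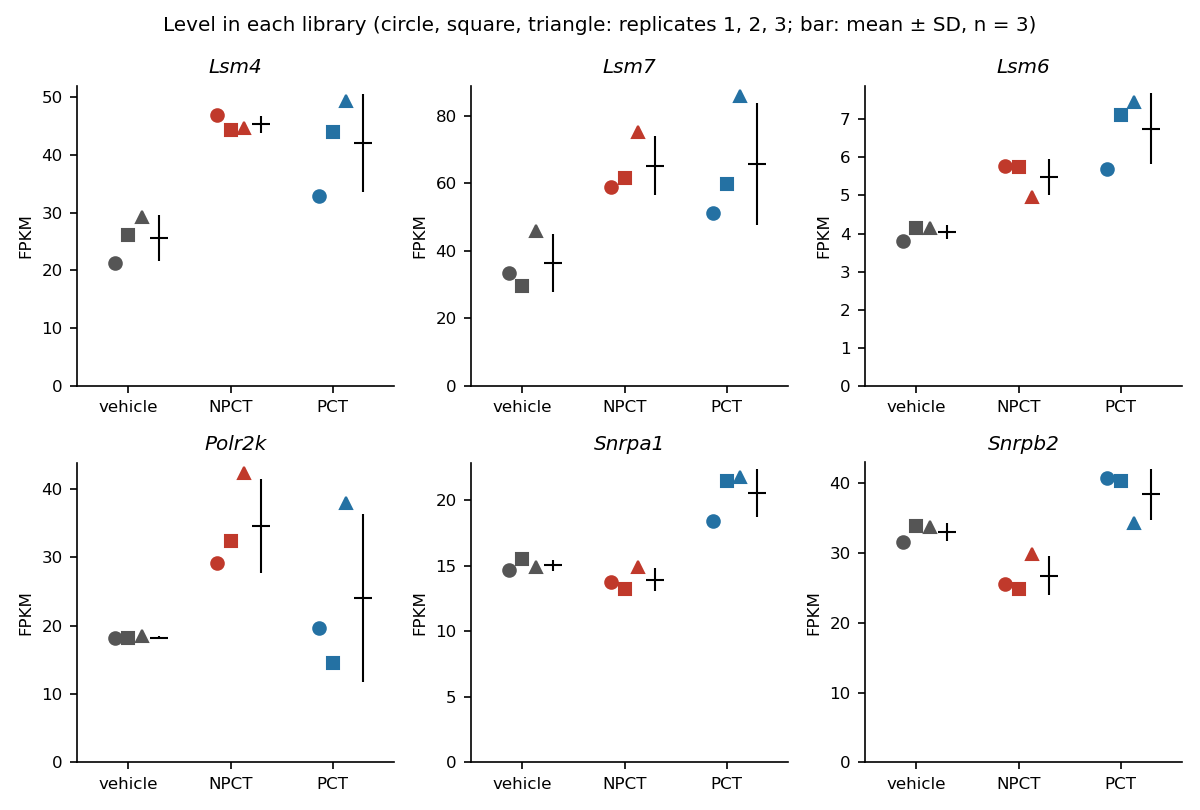
FPKM of Lsm4, Lsm7, Lsm6, Polr2k, Snrpa1 and Snrpb2 in each library by group, with circles, squares and triangles for replicates 1, 2 and 3 and a bar for mean ± SD (n = 3). Lsm4 and Lsm7 sit above vehicle with both peptides, Polr2k is high in the NPCT libraries and in replicate 3 of PCT, and Snrpa1 and Snrpb2 are higher with PCT than with NPCT in every library.

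Among the 13 Sm genes 2 were higher and 2 lower at an unadjusted p under 0.05, near the shares of all genes. The genes Snrpb, Snrpd1, Snrpd2, Snrpd3, Snrpe, Snrpf and Snrpg encode the ring that all spliceosomal particles but U6 share. With NPCT 6 of the 7 had a log2 difference above 0, beside 51.0% of all genes tested. Among the 6 were Snrpe (0.01 ± 0.21) and Snrpg (0.19 ± 0.92), whose models have no intron and can hold fragments of copies. Snrpd2 was at 59.6, 58.7 and 57.6 FPKM in vehicle and 89.3, 73.1 and 86.6 FPKM with NPCT, a log2 difference of 0.50 ± 0.13 with an adjusted p of 0.0599. Its ring neighbour Snrpd1 went the other way, from 59.3, 72.8 and 61.4 FPKM to 47.5, 51.2 and 56.2 FPKM (log2 -0.32 ± 0.10, adjusted p 0.0874). Both pairs of groups were apart, so that neighbouring subunits of the ring were measured in opposite directions.

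Snrpb, the B protein of the ring, was at 40.7, 44.9 and 46.8 FPKM in vehicle and at 52.5, 47.0 and 53.7 FPKM with NPCT, apart by little. Snrpd3 was at 25.1, 23.2 and 21.6 FPKM and at 26.7, 26.7 and 29.8 FPKM. Snrpf had means of 16.0 ± 2.09 and 22.8 ± 3.65 FPKM with groups apart. Snrpb2, the U2 protein B″, was lower in all 3 NPCT libraries (25.5, 24.8 and 29.9 FPKM) than in all vehicle libraries (31.6, 33.8 and 33.8 FPKM), a log2 difference of -0.31 ± 0.09 with an adjusted p of 0.0774.

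Among the polymerase subunits several small ones had higher means with NPCT, and the large ones, Polr2a and Polr2b, lower means. With the length trend removed these differences were smaller, at -0.07 for Polr2a, -0.12 for Polr2b, 0.73 for Polr2k, 0.42 for Polr2j and 0.32 for Polr2f. Polr2k, shared by all 3 polymerases, was at 18.2, 18.2 and 18.4 FPKM in vehicle and at 29.2, 32.3 and 42.3 FPKM with NPCT, a fold change of 1.87 (log2 0.90 ± 0.30). Its adjusted p was 0.0892 in the fit of all libraries and 0.00723 without replicate 3 of PCT, a library that enters only through the shared estimate of spread. Over all fits that left out 1 library it reached 0.221, which was without replicate 3 of NPCT (log2 0.75). Polr2j, a polymerase II subunit that pairs with Polr2c, was at 17.7, 15.2 and 16.4 FPKM and at 23.7, 22.8 and 28.3 FPKM (log2 0.59 ± 0.15, adjusted p 0.0599, and from 0.00789 without that PCT library to 0.183 in the fits without 1 library).

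Polr2e, also shared by the 3 polymerases, was at 26.6, 28.7 and 32.2 FPKM in vehicle and at 38.2, 39.4 and 44.0 FPKM with NPCT (log2 0.48 ± 0.10, adjusted p 0.0517). With Polr2f, at 49.8 ± 0.958 and 70.0 ± 3.93 FPKM, all 3 measured shared subunits had groups apart and an unadjusted p under 0.05, beside 20.0% and 14.6% of all genes. Polr2k and Polr2f are under 800 bases long, a class in which other genes too had a median above 0 with NPCT. The large subunit Polr2a was at 38.3, 39.7 and 37.1 FPKM in vehicle and at 31.3, 35.3 and 34.2 FPKM with NPCT (log2 -0.19 ± 0.09, adjusted p 0.214), and Polr2b, which completes the active site, had means of 28.1 ± 0.635 and 24.8 ± 1.50 FPKM (log2 -0.18 ± 0.07, adjusted p 0.110). Both were apart from vehicle by small margins.

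Polr2c, Polr2d and Polr2g stayed near vehicle. Polr2g, which forms a detachable stalk with Polr2d, was at 46.3, 47.8 and 47.2 FPKM in vehicle and at 46.6, 46.3 and 53.2 FPKM with NPCT. Polr2c was at 27.6, 24.6 and 27.7 FPKM and at 27.0, 27.0 and 31.5 FPKM. Polr2d was at 16.1, 18.1 and 19.5 FPKM and at 19.3, 19.3 and 18.9 FPKM. The groups of all 3 genes overlapped. The model of Polr2b overlaps that of Igfbp7 on the opposite strand, at a mean of 109 FPKM, and Polr2j overlaps Lrwd1 on the opposite strand, at 6.90 FPKM, and without a statement that strand was used in counting, fragments of such partners cannot be told apart.

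**Figure D3:**
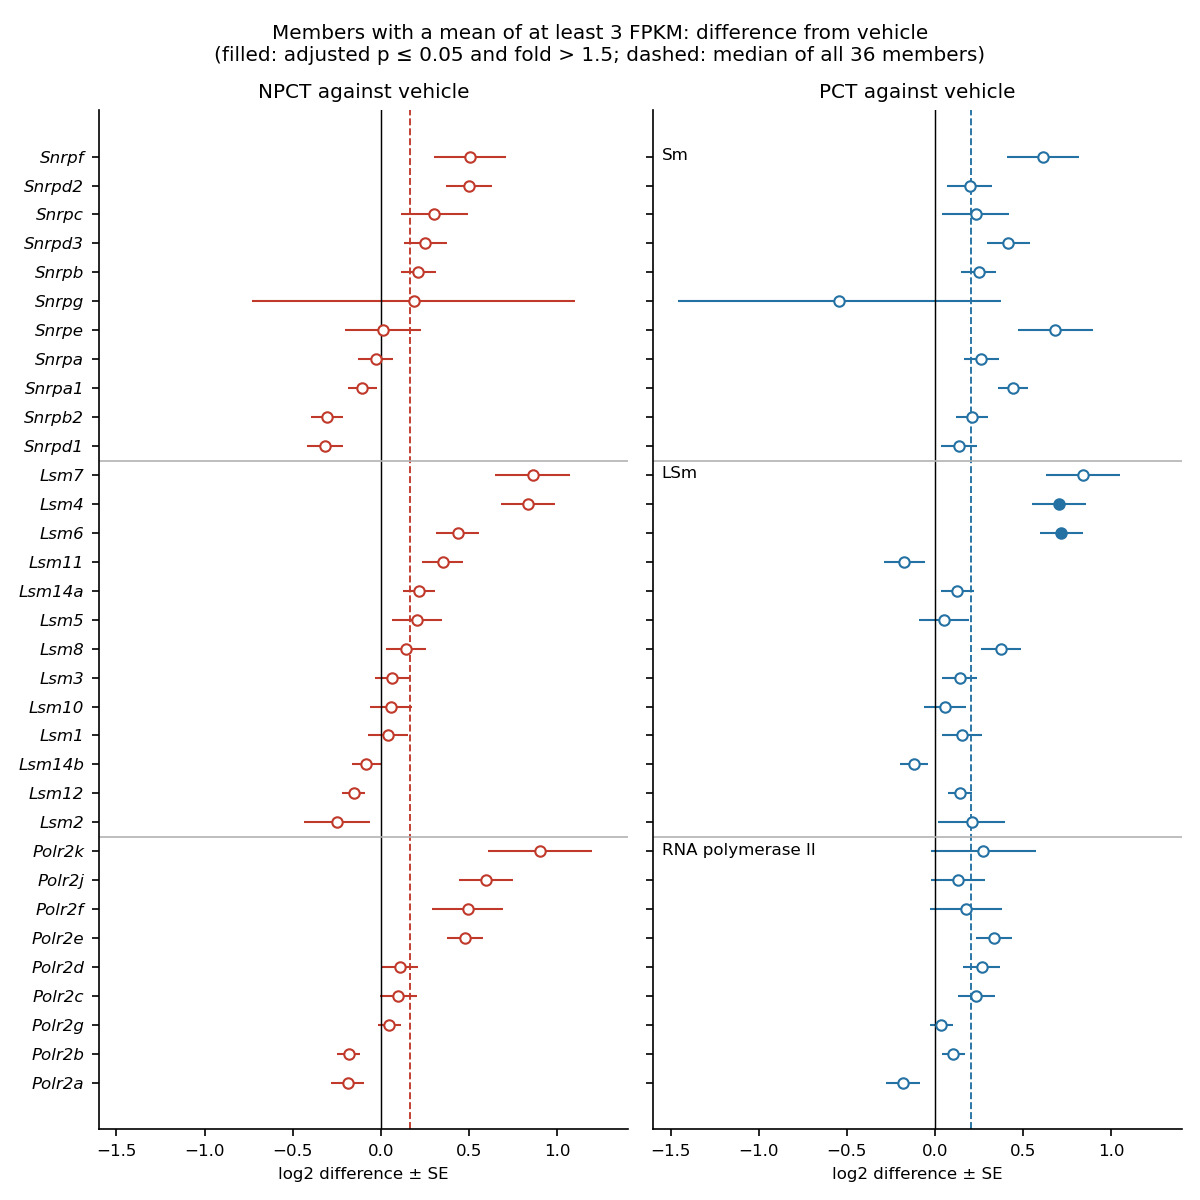
Log2 difference from vehicle with its standard error (limma) for NPCT on the left and PCT on the right, for the members with a mean of at least 3 FPKM, ordered within each family by the NPCT value. Filled points are DEGs (Lsm4 and Lsm6 with PCT), the dashed line is the median of all 36 members (0.16 and 0.20), and the order of the left panel is only partly kept on the right.

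The comparison of PCT with vehicle asked the same of the parent peptide, against the same 3 vehicle libraries. Lsm6 and Lsm4 rose with PCT and were the 2 DEGs among the members (5.56% of them, where 2.28% of all genes tested were DEGs), and Snrpa1 rose by less than the fold limit. By adjusted p alone these were 3 members, where 4.12% of all genes tested passed. By limma-voom 3 members were DEGs (Lsm7, Lsm4 and Lsm6), where 2.34% of all genes were. Without replicate 3 of PCT, Lsm6 still passed both limits by limma (log2 0.64, adjusted p 0.0393) and Lsm4 did not (log2 0.57, adjusted p 0.0777). At an unadjusted p under 0.05, 12 members were higher (background 9.91%) and 0 lower by limma (background 9.01%). The PCT libraries lay all above vehicle for 11 members (background 13.1%) and all below for 0 (background 11.9%). The median log2 difference was 0.20 over all 36 members and 0.21 over the 32 with at least 50 fragments, with 29 of 32 above 0, beside 0.00 for all genes tested.

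Lsm6 (chr19:32770655-32785215, plus strand) was at 5.69, 7.10 and 7.45 FPKM with PCT against 3.82, 4.15 and 4.14 FPKM in vehicle, a fold change of 1.64 (log2 0.72 ± 0.12) with an adjusted p of 0.0157. Its call was lost without any 1 of the vehicle libraries or without replicate 2 of PCT, with adjusted p up to 0.0759. Lsm4 was at 32.8, 44.0 and 49.4 FPKM with PCT, above the 21.3 to 29.3 FPKM of vehicle, a fold change of 1.63 (log2 0.70 ± 0.15) with an adjusted p of 0.0413. That call was lost in 11 of the 20 alternatives, among them the fit of vehicle and PCT alone (adjusted p 0.108), and without vehicle replicate 1 the adjusted p was 0.149. Without replicate 3 of PCT the log2 difference of Lsm4 was 0.57 and the adjusted p 0.0777.

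Lsm7 was at 51.2, 59.7 and 85.8 FPKM with PCT, also apart from vehicle, with an adjusted p of 0.0642 at a log2 difference of 0.84 ± 0.21. Without replicate 3 of PCT these were 0.0987 and 0.62, while limma-voom called Lsm7 (adjusted p 0.0441). All of Lsm1 to Lsm8 had a log2 difference above 0 with PCT, from 0.05 for Lsm5 (18.4, 16.6 and 20.5 FPKM) to 0.84 for Lsm7. Of all genes tested 50.1% were above 0. At an unadjusted p under 0.05, 4 of the 8 were higher (background 9.91%). Lsm1 was at 16.8, 18.0 and 14.6 FPKM with PCT, overlapping vehicle.

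Snrpa1 (chr1:126961389-126974453, plus strand) encodes the A′ protein of U2, with which the product of Snrpb2 binds the U2 small nuclear RNA. It was at 14.7, 15.5 and 14.9 FPKM in vehicle and at 18.4, 21.4 and 21.8 FPKM with PCT, a fold change of 1.36 (log2 0.44 ± 0.08) with an adjusted p of 0.0231, which reached 0.101 in the fits that left out 1 library. Snrpb2 was at 40.8, 40.3 and 34.2 FPKM with PCT, above the 3 vehicle libraries (log2 0.21 ± 0.09, adjusted p 0.267). Both U2 proteins were thus apart from vehicle with PCT.

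Of the 7 ring genes, 6 had a log2 difference above 0 with PCT, beside 50.1% of all genes tested. At an unadjusted p under 0.05, 4 were higher (background 9.91%), among them Snrpe, whose fragments can come from copies. Snrpd3 was at 28.5, 27.8 and 38.2 FPKM (log2 0.41 ± 0.12, adjusted p 0.100) and Snrpb at 50.5, 47.6 and 60.4 FPKM (log2 0.25 ± 0.10, adjusted p 0.214), both apart from vehicle. Snrpd2 was at 63.3, 57.8 and 83.3 FPKM, where only replicates 1 and 3 exceeded all vehicle libraries. Snrpd1 was at 78.2, 70.3 and 64.7 FPKM and overlapped vehicle.

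Of the polymerase genes, Polr2e (34.1, 35.0 and 41.8 FPKM) and Polr2d (19.6, 25.0 and 20.3 FPKM) lay above vehicle in all 3 PCT libraries, with adjusted p of 0.111 and 0.208. Polr2c was at 27.0, 34.1 and 33.4 FPKM and Polr2g at 46.9, 48.4 and 49.8 FPKM, and both overlapped vehicle. Polr2k was at 19.7, 14.6 and 37.9 FPKM and Polr2j at 17.0, 14.9 and 23.0 FPKM. In both genes replicate 3 of PCT was at the level of the NPCT libraries and the other PCT libraries near vehicle. Polr2a was at 37.2, 35.8 and 29.1 FPKM, its lowest value again in replicate 3.

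The direct comparison of NPCT with PCT asked whether the cleaved peptide and its parent differ, and it shares libraries with both comparisons above. None of the members was a DEG by limma or by limma-voom, where 5.73% of all genes tested were DEGs by limma and 6.02% by limma-voom. By limma-voom 11 members had an unadjusted p under 0.05 (background 33.0%). At an unadjusted p under 0.05, 9 members were lower with NPCT (background 16.8%) and 3 higher (background 16.0%). The groups were apart with NPCT lower for 8 members (background 18.0%) and with NPCT higher for 1 (background 15.4%). Over the 32 members with a mean of at least 50 fragments the median log2 difference was -0.06, with 13 of 32 above 0. Over all 36 members, Polr2i and Snrpd2l among them, it was -0.02 with 16 of 36 above 0.

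By adjusted p alone 6 members passed in this comparison, a share near the 16.1% of all genes tested that did. The U2 pair had the smallest p: Snrpa1, at 13.7, 13.2 and 14.9 FPKM with NPCT against 18.4 to 21.8 FPKM with PCT, had a log2 difference of -0.55 ± 0.08 and an adjusted p of 0.00496. Snrpb2, at 24.8 to 29.9 FPKM with NPCT against 34.2 to 40.8 FPKM with PCT, had -0.51 ± 0.09 and 0.0104. The groups were apart in both genes, and both adjusted p stayed at or under 0.05 in every fit that left out 1 library, at most 0.0236 and 0.0424.

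Snrpd1 was lower with NPCT than with PCT (51.7 ± 4.34 against 71.1 ± 6.76 FPKM, adjusted p 0.0218), as were Lsm12, an LSm protein outside the rings (45.4 ± 0.958 against 56.1 ± 3.38 FPKM, adjusted p 0.0202), and Polr2b (24.8 ± 1.50 against 30.3 ± 1.55 FPKM, adjusted p 0.0232). Lsm11 of the U7 particle was the only one of the 6 that was higher with NPCT. It was at 62.5, 53.5 and 57.9 FPKM with NPCT and at 40.4, 34.9 and 46.7 FPKM with PCT, a log2 difference of 0.53 ± 0.12 with an adjusted p of 0.0205. Each of these 4 calls was lost in 4 of the 9 fits that left out 1 library, among them those without PCT replicate 1, PCT replicate 2 or NPCT replicate 1, with an adjusted p of up to 0.0766 for Snrpd1, 0.0719 for Lsm12, 0.0814 for Polr2b and 0.0747 for Lsm11.

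Lsm4, Lsm6 and Lsm7, the LSm genes with the largest differences from vehicle, had log2 differences between NPCT and PCT of 0.13 ± 0.15, -0.28 ± 0.12 and 0.02 ± 0.21, none with an adjusted p at or under 0.05. Without replicate 3 of PCT 7 members became DEGs in this comparison, while the share of all genes rose to 10.2%. The members were Polr2f, Polr2j, Polr2k and Lsm11 with higher and Snrpb2, Lsm2 and Snrpe with lower levels under NPCT. Lsm2, for example, was at 24.5, 27.0 and 15.1 FPKM with PCT and at 14.6, 16.1 and 16.3 FPKM with NPCT, so that this 1 library decided whether its groups overlapped. Over the 32 members with a mean of at least 50 fragments, that library held the highest of the 9 values for 11. The same count was not made over all genes.

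As a whole the members took 0.138 ± 0.00029% of all fragments in vehicle, 0.151 ± 0.0041% with NPCT and 0.154 ± 0.0076% with PCT (SD, n = 3). The PCT libraries were at 0.148, 0.151 and 0.162%, so that all 3 were above vehicle and replicate 3 was the highest. Both peptide groups lay wholly above vehicle (exact two-sided permutation p = 0.1 each, the smallest that 3 against 3 libraries allow), and they overlapped each other (exact p = 0.6). The summed level was 964 ± 14.7, 1113 ± 49.3 and 1126 ± 86.8 FPKM, with 1084, 1068 and 1225 FPKM in the PCT libraries. Among the 32 members with at least 50 fragments on average, the highest of the 9 values fell in a PCT library for 21, an NPCT library for 9 and a vehicle library for 2. No such count was made over all genes, so whether it is particular to the members was not tested.

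The members are short genes, with a median length in the table of 988 bases against 2136 for all genes tested, and log2 differences moved with length. Over the 32 members with a mean of at least 50 fragments, the 8 under 800 bases had a median of 0.35 with NPCT and were all above 0, the 13 from 800 to under 1200 bases had 0.10, and the 11 longer ones had 0.04. All genes tested in these classes had medians of 0.15, 0.13 and -0.01 with NPCT. Spearman's rho between length and the NPCT difference was -0.33 across these 32 members and -0.22 across all genes tested. Genes share the same libraries, so these are descriptions.

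With PCT, the same classes of these members had medians of 0.22, 0.21 and 0.15, beside 0.06, 0.07 and -0.01 for all genes tested, and rho across the members was -0.18. Without replicate 3 of PCT the members' medians were 0.02, 0.20 and 0.19, and 4 of the 8 short ones were above 0. Over the genes that are no members, the slope of level on length was -0.028 log2 per doubling in that library and -0.026 to -0.019 in the 3 NPCT libraries, while it was 0.022 and 0.027 in the other PCT libraries and -0.00085 to 0.028 in vehicle. When the trend of each library with length was removed, the median difference of the 32 members was -0.01 with NPCT and 0.14 with PCT, and 15 and 26 of the 32 were above 0. The part of RNA length or its quality in these differences was not tested.

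**Figure D4:**
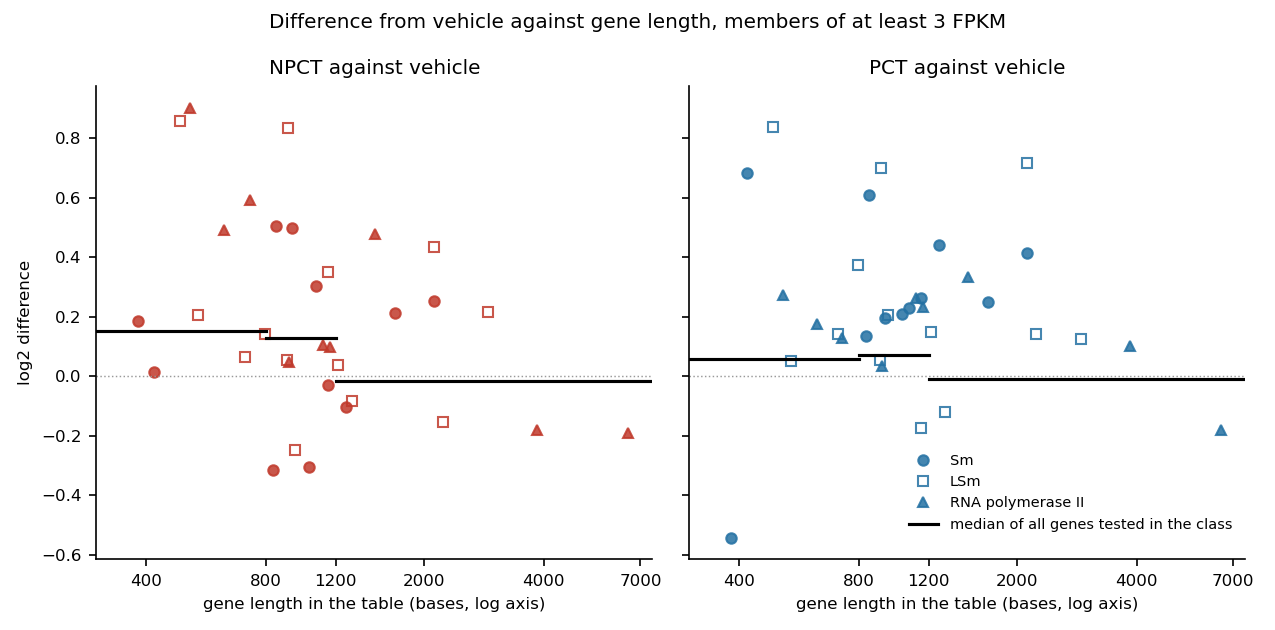
Log2 difference from vehicle against gene length (log axis) for members with a mean of at least 3 FPKM, with NPCT on the left and PCT on the right and symbols for the families. Black bars are the medians of all genes tested under 800, from 800 to under 1200 and from 1200 bases. With NPCT the short members reach higher than the long ones, and with PCT members of all lengths lie mostly above the bars.

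Several members rest on gene models that limit their values. Snrpe (418 bases at chr8:129371556-129371973), Snrpg (382 bases at chr1:91588228-91588609) and Snrpd2l (357 bases at chr20:28873007-28873363) have no intron in the table, since length equals span. RefSeq places Snrpe on chromosome 13 and Snrpg on chromosome 4, lists a pseudogene with Snrpe as a synonym, and calls Snrpd2l a pseudogene. It also lists a pseudogene, Polr2k-ps2, with Polr2k as a synonym. The fragments of these genes can come from the true genes or from copies. Snrpe was at 12.0, 10.6 and 6.94 FPKM in vehicle, 10.6, 8.33 and 10.2 FPKM with NPCT and 19.2, 15.1 and 12.8 FPKM with PCT. It was apart from vehicle with PCT at an adjusted p of 0.120.

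Snrpg held 84, 10 and 46 fragments in vehicle, 21, 74 and 35 with NPCT and 63, 27 and 8 with PCT, a swing within each group that exceeded any difference between groups. Another model on chromosome 4, LOC687679, has introns and held 162, 167 and 161 fragments in vehicle, 384, 313 and 480 with NPCT and 129, 124 and 480 with PCT. Its name in the table is no member's, but its description is that of a gene for the G protein of the ring. Only its chromosome was compared with the place of Snrpg in RefSeq. Its level was 26.4 ± 0.841 FPKM in vehicle and 64.4 ± 11.2 FPKM with NPCT (log2 1.27 ± 0.38, limma adjusted p 0.0762), and replicate 3 of PCT again sided with NPCT.

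Polr2i, which encodes a small subunit of the polymerase's jaw, had 91 fragments in NPCT replicate 1 and at most 8 in any other library. LOC103690054, a second model for the same subunit by its description, had 278 fragments in NPCT replicate 3 and 3 to 6 in the others. Polr2h was listed at 0 throughout. LOC100912534, a model elsewhere on the same chromosome that is described as the same shared subunit, had 211 fragments in PCT replicate 3, 126 in NPCT replicate 3 and at most 4 elsewhere. Only 1 or 2 libraries thus carry these loci, and no level of a group can be read from them. Snrpd2l had 0 to 7 fragments and Snrpn was at 0.81, 1.02 and 0.67 FPKM in vehicle, 0.94, 0.53 and 0.76 FPKM with NPCT and 0.84, 0.73 and 0.83 FPKM with PCT.

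**Figure D5:**
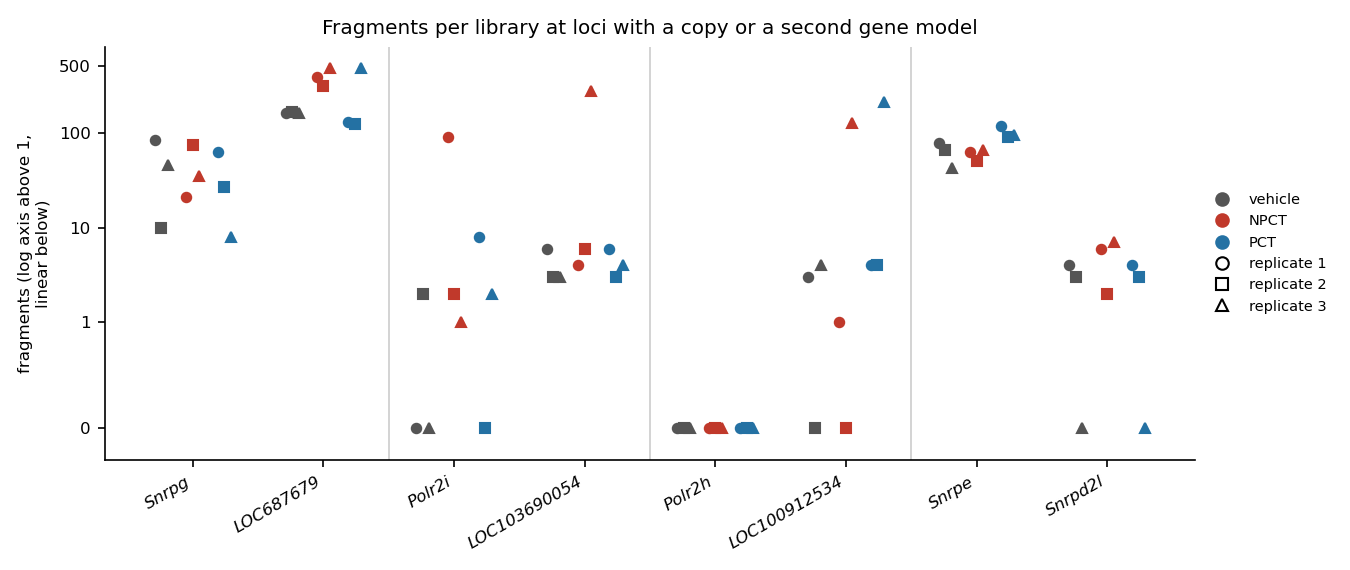
Fragments in each library (log axis above 1, linear below) at members with a copy or a second gene model, with related loci side by side. LOC687679 is high in NPCT and in PCT replicate 3, Polr2i, LOC103690054 and LOC100912534 are carried by 1 or 2 libraries, and Polr2h is at 0 in all.

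The members' partners in splicing, transcription and decay were described with lists of genes by function, chosen with earlier results of these data known. Their counts stand beside the shares of all genes given above, which at an unadjusted p under 0.05 were 14.6% higher and 14.7% lower with NPCT, and 9.91% higher and 9.01% lower with PCT. Of 50 other spliceosome proteins, none was a DEG with NPCT, and at an unadjusted p under 0.05, 16 were higher and 7 lower with NPCT (median log2 difference 0.06) and 17 higher and 0 lower with PCT (median 0.17), so that the count lower with NPCT was at the level of all genes. In the direct comparison Sf3b6, which sits with Sf3b1 in the U2 particle, was the 1 DEG of this list, at 28.2 ± 2.04 FPKM with NPCT and 42.8 ± 5.43 FPKM with PCT (log2 -0.59, adjusted p 0.00715). Sf3b1 itself was at 89.8 ± 4.29 FPKM in vehicle, 72.2 ± 3.85 FPKM with NPCT and 95.1 ± 6.80 FPKM with PCT, with an adjusted p of 0.0104 between the peptides. Snrnp40 of the U5 particle was at 14.8 ± 1.34 FPKM in vehicle and 20.4 ± 2.35 FPKM with PCT (adjusted p 0.0359, above 0.05 in 7 of 9 fits without 1 library). U2af1, which marks the end of the intron, was at 45.6 ± 1.68, 61.1 ± 2.06 and 60.0 ± 9.55 FPKM in vehicle, NPCT and PCT, with limma adjusted p of 0.0545 and 0.0750 against vehicle.

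The SMN complex, which loads Sm rings onto RNA, had 15 genes tested and a median of -0.06 with NPCT and 0.12 with PCT. Smn1 was at 18.5 ± 0.505 FPKM in vehicle, 15.0 ± 1.28 FPKM with NPCT and 20.2 ± 2.03 FPKM with PCT, and Tgs1, which methylates the cap of small nuclear RNAs further, at 10.4 ± 0.258, 8.20 ± 0.281 and 11.4 ± 0.980 FPKM. Between NPCT and PCT their limma adjusted p were 0.0192 and 0.00877, with fold changes inside the limit, and that of Smn1 was above 0.05 in 3 of 9 fits without 1 library. Of the 11 decapping and decay genes, 3 had a log2 difference above 0 with NPCT and 6 with PCT, and Ddx6, the helicase partner of Lsm14a and Lsm14b, was at 42.9 ± 1.74 FPKM in vehicle and 35.1 ± 2.46 FPKM with NPCT (adjusted p 0.0637). Nudt16, a nuclear decapping enzyme, was a DEG between NPCT (16.7 ± 0.659 FPKM) and PCT (11.2 ± 2.05 FPKM, adjusted p 0.0202), a call lost in 4 of those 9 fits.

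Of the 31 general transcription factor genes, 5 were higher and 5 lower with NPCT at an unadjusted p under 0.05, and 8 higher and 0 lower with PCT, the NPCT counts being near the shares of all genes. Taf10, a subunit of the factor TFIID, was at 32.8 ± 2.58 FPKM in vehicle and 54.5 ± 6.80 FPKM with NPCT (log2 0.73). Its adjusted p of 0.0498 was just inside the limit, and the call was lost in 7 of 9 fits, all but those without PCT replicate 1 or PCT replicate 3, with an adjusted p of up to 0.170. Ccnh, the cyclin of the TFIIH kinase, was a DEG between NPCT (26.3 ± 1.99 FPKM) and PCT (41.8 ± 4.71 FPKM, adjusted p 0.00474). Of the 19 subunits of polymerases I and III, 8 were higher and 0 lower with PCT at that p, and Cd3eap of polymerase I rose from 3.26 ± 0.601 to 5.78 ± 1.12 FPKM (log2 0.80, adjusted p 0.0350), a call lost in 7 of 9 fits without 1 library, with an adjusted p of up to 0.110.

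Polr1d, shared by polymerases I and III, was at 31.8 ± 1.93 FPKM in vehicle and 51.6 ± 1.28 FPKM with NPCT (log2 0.70, limma adjusted p 0.0543), with groups apart. Of the 34 pausing and elongation genes none was a DEG by limma in any comparison, and at an unadjusted p under 0.05, 6 were higher and 5 lower with NPCT and 4 higher and 0 lower with PCT, near the shares of all genes but for the 0. Hexim1, which holds the elongation kinase inactive, was at 17.8 ± 0.619 FPKM in vehicle, 23.9 ± 0.441 FPKM with NPCT and 18.9 ± 2.70 FPKM with PCT. The U7 partners (4 genes tested) all had log2 differences below 0 with NPCT, with Slbp, which binds the histone stem-loop, at 25.3 ± 1.52 FPKM in vehicle and 20.6 ± 1.39 FPKM with NPCT (adjusted p 0.0547), while Lsm11 of the same particle was measured higher. At an unadjusted p under 0.05, 3 of these 4 were lower with NPCT.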

How the data were processed

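RNA-seq of poly-A selected RNA was deposited as 1 table of FPKM values per gene for 9 libraries. Per the paper's methods and the submitters' processing notes, the authors aligned reads to Rnor 6.0 with HISAT2 2.0.5, counted with featureCounts 1.5.0-p3 and scaled counts to the deposited FPKM; StringTie 1.3.3b and CASAVA are also named. Whether counting used strand is not given in the sources used here. FPKM times gene length came out as whole multiples of a library step for 100% of values (tolerance 0.02), which gave fragments per gene and a depth of 13573056 to 17211642 per library.

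Genes with a mean of at least 0.5 FPKM were tested with limma 3.58.1 in R 4.3.3 (trended empirical Bayes) on log2(FPKM/library factor + 0.1) over all 9 libraries, with Benjamini-Hochberg adjustment over 15958 genes. The scripts were tested on simulated data. A count model was not the main test, because the values are FPKM. limma-voom on the recovered fragments, other pseudocounts, filters and scalings, removal of the length trend, a replicate block, fits of the compared groups alone and fits without each library were alternatives. Members named with every library's value were DEGs, the 3 smallest and the 1 largest p per family and comparison with vehicle, and Polr2a, Snrpb and Snrpn; list genes named were taken from the DEGs and the 2 smallest p per comparison with vehicle. Others given in full were chosen after their values were seen. Members and lists were chosen with earlier results of these data known. Lists covered spliceosome, SMN complex, decapping, polymerases I and III, general factors, elongation, U7 partners and markers of 6 cell types. Promoters come from RefSeq GRCr8, and gene positions from the deposited table.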

Additional observations from a re-analysis of the deposited data

Results flagged for a closer look

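Snrpb2 stood on opposite sides of vehicle with the peptides, at a log2 difference of -0.31 with NPCT, where all 3 libraries were below vehicle, and of 0.21 with PCT, where all 3 were above it. Neither difference from vehicle passed adjustment (limma adjusted p 0.0774 and 0.267). With PCT the lowest library was at 34.2 FPKM, close to the highest vehicle library at 33.8 FPKM. The difference between the peptides, -0.51, was tested directly by limma (adjusted p 0.0104).

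The limma comparison of NPCT with PCT also separated 5 more members by adjusted p: Snrpa1 at a log2 difference of -0.55, Snrpd1 at -0.45, Lsm12 at -0.30 and Polr2b at -0.28 were lower with NPCT, and Lsm11 at 0.53 was higher. All but Snrpa1 and Snrpb2 lost the call in 4 of 9 fits that left out 1 library. The 6 members compare with 16.1% of all genes tested that passed the same threshold, a like share. None of the 6 passed the fold limit of 1.5 together with the adjusted p.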

How the results depend on the processing

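Among the members whose single differences were followed through the alternatives, none that had passed its test changed direction. Lsm11, Lsm12, Polr2b and the genes of the lists were not followed in that way. For NPCT against vehicle, 0 members were DEGs in the reported fit. There was 1 (Lsm4) with a pseudocount of 1, with genes of at least 1 FPKM, with quantile normalization and with the length trend removed. In these fits 121, 202, 189 and 124 of all genes were DEGs. There were 4 (Lsm7, Lsm4, Polr2k and Polr2j) in the fit of both groups alone, 3 (Lsm7, Lsm4 and Polr2j) by limma-voom, and 3 (Lsm7, Lsm4 and Polr2k) with both groups alone and the length trend removed, an alternative chosen after seeing the data. Fits that left out 1 library gave 0 to 4 DEGs, with 2 without PCT replicate 1 and 4 without PCT replicate 3, and 8 to 20 members at an unadjusted p under 0.05. The members' median log2 difference of 0.16 became 0.011 with the length trend removed and 0.0094 with that and the groups alone, and over the 32 members with at least 50 fragments 0.12 became -0.01.

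For PCT against vehicle the 2 DEGs became 1 (Lsm6) without a filter, with both groups alone, and with the groups alone and the length trend removed. By limma-voom they became 3 (Lsm7, Lsm4 and Lsm6), where 2.34% of all genes were DEGs. Fits without 1 library gave 0 to 4, with 1 without PCT replicate 3, 0 without vehicle replicate 1, 2 or 3 or PCT replicate 2, and 4 without PCT replicate 1. Over all genes these fits gave 168 to 402 DEGs. The median of 0.20 became 0.137 with the length trend removed and 0.133 with that and the groups alone. For NPCT against PCT the 0 DEGs became 1 (Snrpa1) with the length trend removed, alone or with the compared groups alone. They became 0 to 7 in fits without 1 library, with 7 without PCT replicate 3 (10.2% of all genes) and 2 without NPCT replicate 3. Over all genes the fits without 1 library gave 524 to 1632 DEGs. In them 7 to 14 members had an unadjusted p under 0.05, a count not made over all genes for these fits, and the members' median ran from -0.10 to 0.020. Beyond what fewer libraries or genes in a fit change by construction, the cause was not tested.

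Deviations of same-numbered libraries correlated at -0.072 to 0.034 over all genes tested. Such a correlation cannot exclude an effect of replicate number shared by some genes. For Lsm7, NPCT against vehicle, the SE was 0.21 in the reported fit and 0.10 with a replicate block. With a replicate block, DEGs among the members were 3 (Lsm7, Lsm4 and Polr2j) for NPCT against vehicle, 3 (Lsm7, Lsm4 and Lsm6) for PCT against vehicle and 1 (Snrpe) for NPCT against PCT, where 2.01%, 2.02% and 5.54% of all genes tested were. Over all genes, the DEG count for NPCT against vehicle was 35 and ran from 9 without a filter to 580 with both groups alone, and from 0 to 563 in fits without 1 library. For PCT against vehicle it was 364 (168 to 402 without 1 library), and for NPCT against PCT 914, with 446 for the groups alone and 524 to 1632 without 1 library. Snrpg, Snrpn, Snrpd2l and Polr2i rest on few fragments, and the size of difference that 3 libraries a group can detect was not tested.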

Other observations

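Snrnp70, the U1-70K protein, carries a symbol outside the rule and was picked after its values were seen. It was at 53.7, 57.1 and 63.4 FPKM in vehicle, at 104, 94.2 and 87.8 FPKM with NPCT and at 57.5, 59.8 and 99.9 FPKM with PCT. The NPCT libraries were all above vehicle (log2 0.72, limma adjusted p 0.0606), and of the PCT libraries only replicate 3 was at their level. The U1 members that the rule took differed less: Snrpc was at 33.5, 33.8 and 34.9 FPKM in vehicle, 39.9, 38.8 and 47.7 FPKM with NPCT and 39.9, 29.4 and 55.1 FPKM with PCT, and Snrpa had a log2 difference of -0.03 with NPCT and 0.26 with PCT.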
